A study of Mus musculus with 10 samples.

Results

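The 30 genes described here encode targets of the tumour suppressor p53 and the kinases that signal to it. They were chosen by symbol as a fixed list and were all found, 1 row each, among the 58735 human genes of the deposited count table. RNA came from tumours that LNCaP cells, a human prostate cancer line that responds to androgen, formed under the skin of mice of the NOD.Cg-Prkdcscid Il2rgtm1Wjl/SzJ genotype, which lack T, B and NK cells of their own. The 5 IL-15 tumours came from mice given sipuleucel-T (sip-T), a product of human blood cells cultured with a prostate antigen, together with 1 µg, under the skin, of recombinant human IL-15. Mice with the 5 control tumours received control sip-T without it. In both groups 4 weekly intraperitoneal injections of 5000000 cells in 100 µl were given and tumours were taken 7 days after the last. The labels call the IL-15 group control sip-T with IL-15 while the design text has the cells treated with IL-15, so treatment of the cells and injection of IL-15 cannot be told apart.

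The protein p53 is kept scarce by MDM2, a ubiquitin ligase whose gene p53 itself switches on. DNA damage activates the kinases ATM and CHEK2, which phosphorylate p53 and release it from this control. Stabilised p53 then switches on genes that halt the cell cycle, repair DNA, adjust metabolism or start apoptosis.

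The libraries held 13560224 to 19324056 counts, and 16913 genes passed the filter on low counts, including all 30 members. Values are CPM, counts divided by library size after TMM scaling for differences in library composition. Errors of levels are SD over 5 tumours, while errors of log2 fold changes are standard errors from the edgeR fit. A floor of 3 counts, for a gene with none, corresponded to 0.159 to 0.221 CPM, for counting error only. All 12 prostate luminal markers were tested and their sum was 10019.7 to 15335 CPM in IL-15 tumours and 8812 to 12594 CPM in control tumours. The 21 T cell markers summed to 7.39 to 57.2 CPM in IL-15 tumours and 5.76 to 24.6 CPM in control tumours, and the 16 NK cell and cytotoxicity markers to 4.36 to 41.7 CPM and 1.63 to 18.1 CPM in the same order of groups. None of these T cell or cytotoxicity markers was at 0 in every library. B cell markers (8 genes, 2 of them, MS4A1 and FCRL1, at 0 throughout) summed to at most 1.08 CPM in IL-15 tumours and 2.00 CPM in control tumours, and 10 myeloid markers to at most 6.30 and 6.57 CPM. How much of the member transcripts came from human leukocytes was not tested, and in bulk RNA fewer cells of a type and less RNA per cell cannot be told apart.

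The genes of p53 signalling differed widely in level. Per kilobase of gene (FPKM, as deposited), 12 members averaged at least 10 FPKM over the 10 tumours, 16 lay between 1 and 10 FPKM, and 2 lay under 1 FPKM. GDF15, a secreted stress cytokine of the TGF-beta superfamily, stood far above the others at 626 ± 359 FPKM in IL-15 tumours and 649 ± 284 FPKM in control tumours (n = 5 each). Its mean was 14.6 times that of the next member and ranked 35 among all 58735 genes, and it supplied 49.1% of all counts of the members, from 27.1% to 63.8% by library. CCNG1, which encodes cyclin G1, a partner of the phosphatase that activates MDM2, came next at 43.0 ± 13.4 FPKM in IL-15 tumours and 44.5 ± 9.10 FPKM in control tumours. TP53INP1, a nuclear protein that promotes p53-dependent death and autophagy, followed at 32.1 ± 9.47 FPKM in IL-15 tumours and 31.9 ± 10.6 FPKM in control tumours, and CDKN1A, the inhibitor of cyclin-dependent kinases known as p21, at 24.7 ± 9.93 FPKM in IL-15 tumours and 29.8 ± 9.15 FPKM in control tumours. MDM2 averaged 8.30 ± 1.24 FPKM in IL-15 tumours and 8.44 ± 1.71 FPKM in control tumours and its relative MDM4, which blocks p53 without degrading it, 7.15 ± 1.49 FPKM in IL-15 tumours and 5.96 ± 0.492 FPKM in control tumours. At the low end stood TIGAR, a regulator of glycolysis, at 0.288 ± 0.0886 FPKM in IL-15 tumours and 0.283 ± 0.0697 FPKM in control tumours, and SPATA18, a mitochondrial quality control gene, at 0.149 ± 0.107 FPKM in IL-15 tumours and 0.486 ± 0.522 FPKM in control tumours. Neighbours in this order overlapped in their ranges except GDF15, whose lowest tumour (301 FPKM) lay above the highest value of any other member (61.4 FPKM, for CCNG1). Of the 30 members, 29 had counts in every library.

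**Figure D1:**
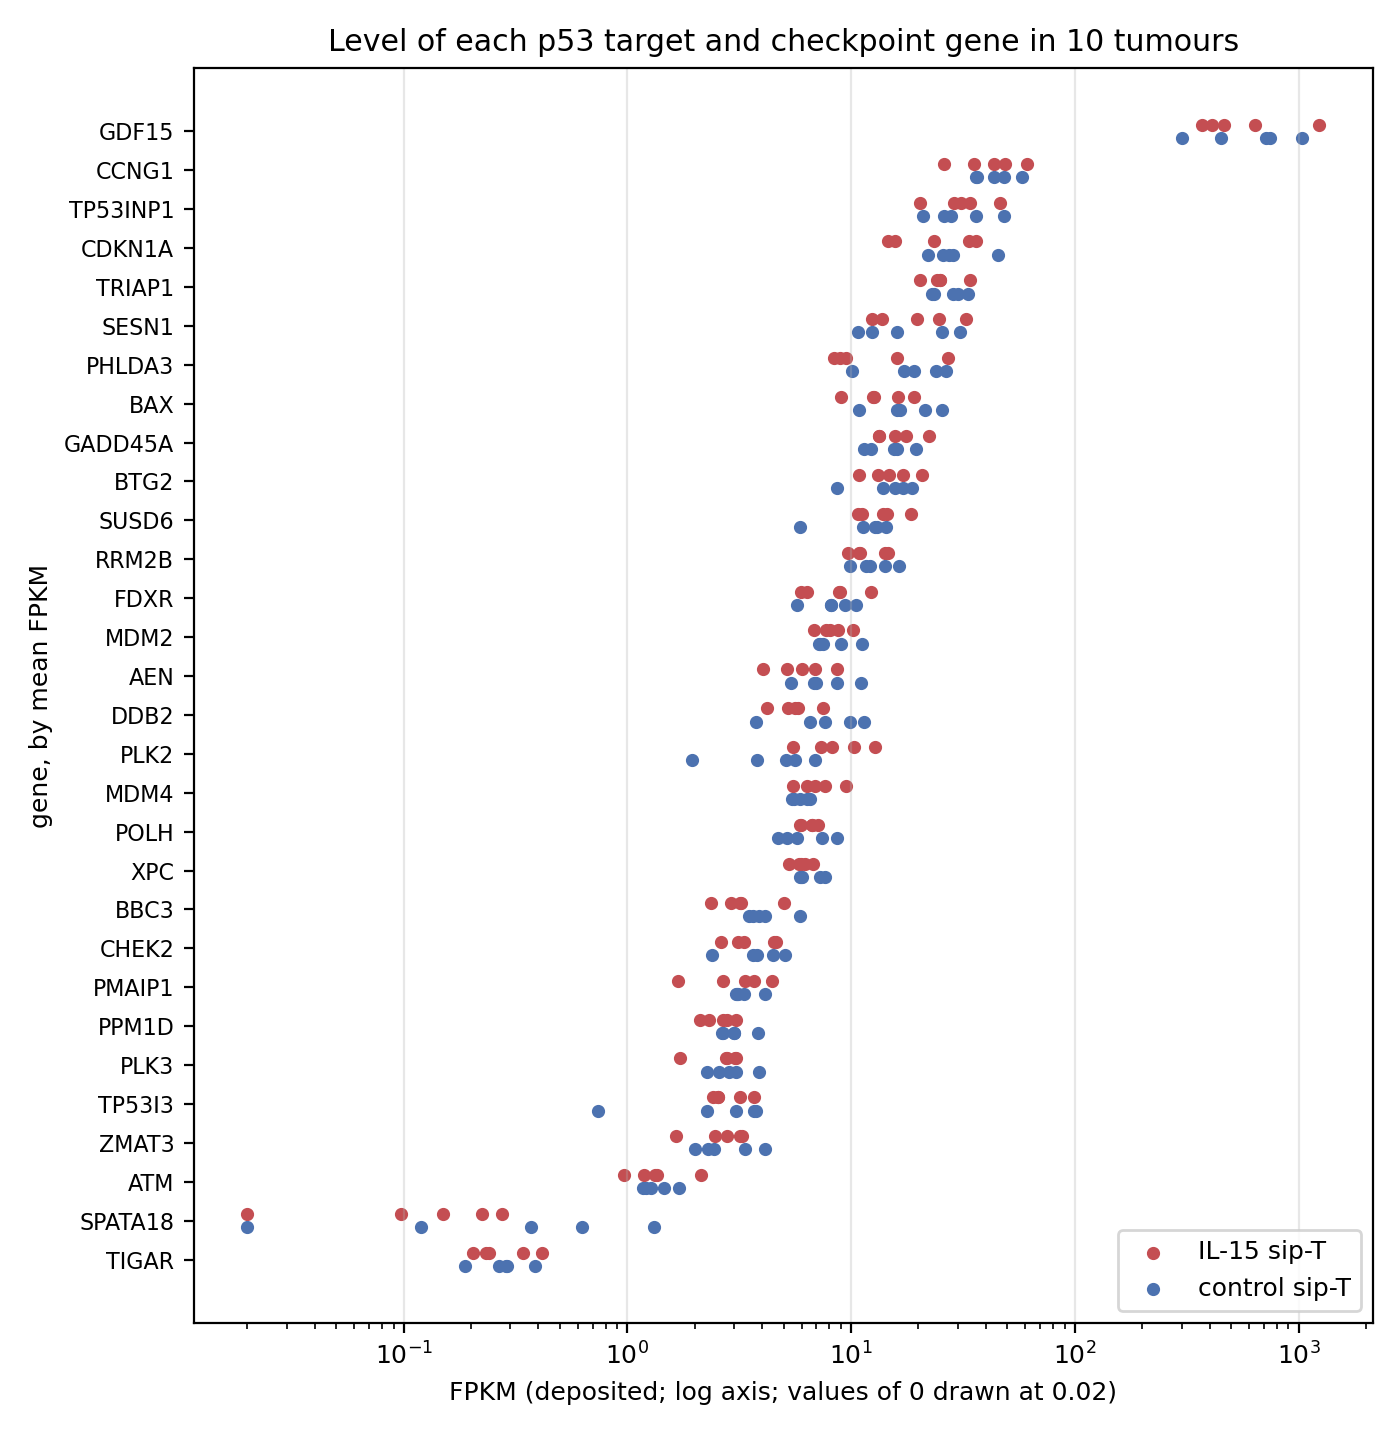
Deposited FPKM of each member (log axis) in the 5 IL-15 tumours (upper points) and the 5 control tumours (lower points), with genes ordered by mean. GDF15 lies above 300 FPKM in every tumour, TIGAR and SPATA18 average under 1 FPKM, values of 0 are drawn at the left edge, and the groups overlap for every gene.

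Whether IL-15 given along with sip-T altered the p53 response of the tumours was addressed by setting the IL-15 tumours against the control tumours. No member passed edgeR's quasi-likelihood test at an adjusted p of 0.05, as was the case for 0% of the 16913 tested genes, and the smallest adjusted p among members was 0.758. At an unadjusted p under 0.05, 1 of 30 members was higher, where the background was 3.03% of tested genes, and none was lower, where it was 3.43% (6.46% in either direction). DESeq2 called 0 members at an adjusted p under 0.05 (0.0414% of tested genes) and 1 at an unadjusted p under 0.05 (7.37% of tested genes), PLK2 as with edgeR. In no member did the groups separate without overlap, which happened upward in 0.349% and downward in 0.313% of tested genes. Of the members, 12 had fold changes above 0 and 18 below, and their median was -0.050 (log2), while all tested genes were split into 8292 above and 8621 below with a median of -0.0060. Library size alone in place of TMM raised the median of all genes by 0.082, and with it the split was 19 members above 0 of 30 (62.7% of all tested genes), so the balance of directions rested on the scaling. For 23 members the estimated fold change lay within 1.25-fold in either direction, and the standard errors of these estimates were between 0.13 and 0.38 on the log2 scale. Nothing in the labels states that each tumour came from a separate animal, so each p-value refers to variation among the libraries, which may be technical.

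**Figure D2:**
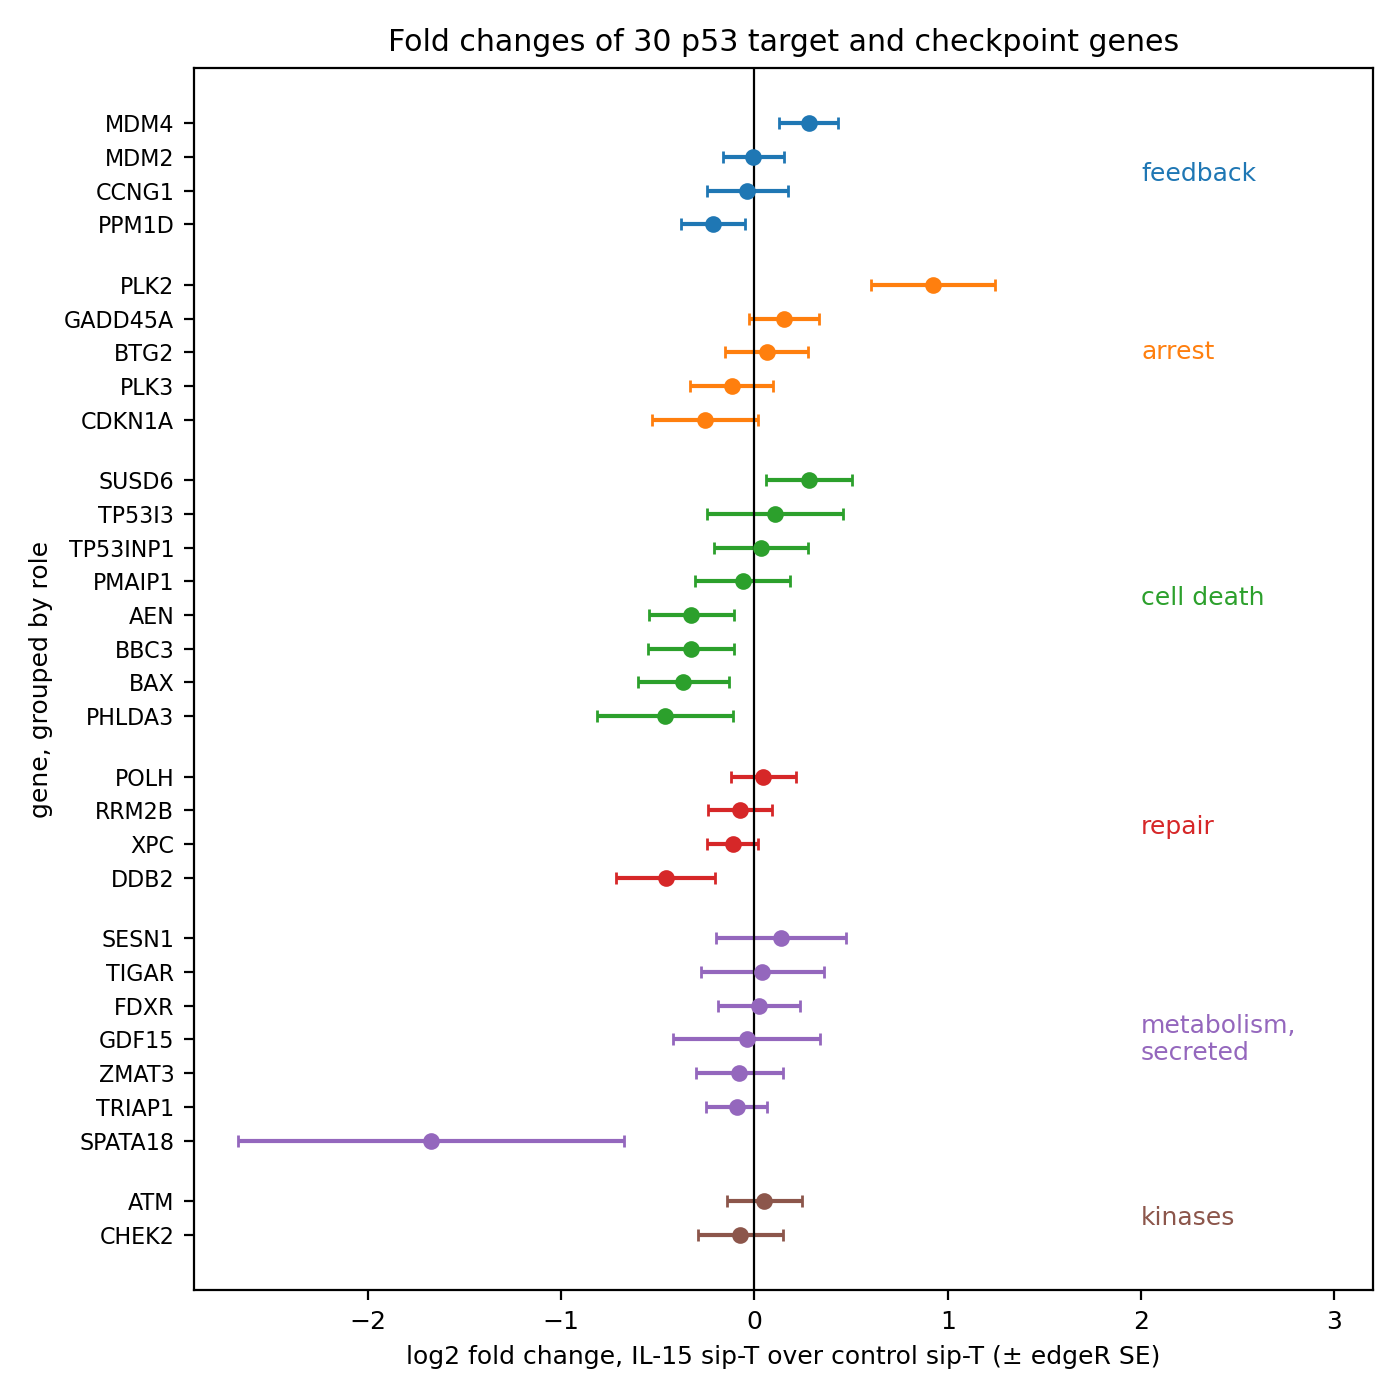
Log2 fold changes of the 30 members, IL-15 over control tumours, with edgeR standard errors (n = 5 per group), grouped by role. PLK2 has the highest value (0.92 ± 0.32) and SPATA18 the lowest (-1.67 ± 1.00), and most others lie within 0.5 of 0.

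Among the arrest genes, PLK2 had the largest positive difference of any member. PLK2 (ENSG00000145632, chromosome 5, 58453982 to 58460260, minus strand on hg38) encodes a polo-like kinase that p53 induces and that acts in centriole duplication. It measured 54.5, 28.8, 69.1, 38.6 and 42.6 CPM in IL-15 tumours 1 to 5, against 36.8, 29.5, 9.99, 19.7 and 27.1 CPM in control tumours 1 to 5. IL-15 tumours 1 and 3 were highest and control tumour 3 was lowest, while IL-15 tumour 2 lay below control tumours 1 and 2, so the groups overlapped. The log2 fold change was 0.92 ± 0.32, the unadjusted edgeR p was 0.0133 and the adjusted p was 0.758 over all genes. Leaving out each library in turn gave a log2 fold change of 0.72 to 1.11. IL-15 tumours 1 and 3 also held the highest T cell marker sums (57.2 and 34.7 CPM). Control tumour 3, with the least PLK2, had a T cell sum of 24.6 CPM. With the T cell sum as a covariate the PLK2 log2 fold change was 0.84. Only 4 of the 21 T cell markers passed the filter on low counts. Whether T cells contributed to the PLK2 difference was not tested.

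CDKN1A (ENSG00000124762, chromosome 6, 36676460 to 36687339, plus strand), the standard readout of p53-driven arrest, was not higher in IL-15 tumours. It measured 49.9, 52.7, 80.7, 123 and 112 CPM in IL-15 tumours 1 to 5, against 93.2, 153, 93.9, 72.9 and 86.6 CPM in control tumours 1 to 5. IL-15 tumours 1 and 2 were lowest and control tumour 2 was highest, with the remaining 7 tumours between 72.9 and 123 CPM. Its log2 fold change was -0.26 ± 0.27 (edgeR adjusted p = 0.880). DINOL, a noncoding RNA of the CDKN1A promoter region known to be induced by p53, had 10 counts over the IL-15 libraries and 12 over the control libraries, too few to be tested.

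GADD45A (ENSG00000116717, chromosome 1, 67685061 to 67688338, plus strand), a stress sensor that blocks entry into mitosis, measured 30.8, 40.0, 36.7, 30.6 and 50.6 CPM in IL-15 tumours 1 to 5, against 26.4, 35.4, 27.4, 43.8 and 36.7 CPM in control tumours 1 to 5. Its highest value was in IL-15 tumour 5 and its lowest in control tumour 1, with overlap of the groups and a log2 fold change of 0.15 ± 0.18 (edgeR adjusted p = 0.895). BTG2, an antiproliferative cofactor of mRNA decay, averaged 46.8 ± 11.5 CPM in IL-15 tumours and 44.8 ± 11.7 CPM in control tumours. PLK3, a second polo-like kinase of the stress response, averaged 10.3 ± 2.13 CPM in IL-15 tumours and 11.2 ± 2.45 CPM in control tumours, and its log2 fold change of -0.12 crossed 0 when single libraries were left out.

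Among the 4 feedback regulators of p53, the SD of log2 CPM within groups was 0.25 for MDM2, 0.24 for MDM4, 0.21 for PPM1D and 0.38 for CCNG1, where the median over all members was 0.40. MDM2 (ENSG00000135679, chromosome 12, 68808176 to 68850686, plus strand) measured 101, 127, 153, 114 and 117 CPM in IL-15 tumours 1 to 5, against 108, 163, 130.0, 104 and 110.3 CPM in control tumours 1 to 5. Control tumour 2 was highest and IL-15 tumour 3 next, and the groups had nearly the same mean, at 123 ± 19.5 CPM in IL-15 tumours and 123 ± 24.7 CPM in control tumours. The log2 fold change was -0.0068 ± 0.16 (edgeR adjusted p = 0.996), with a sign that changed in 11 of 22 alternative analyses. MDM4 (ENSG00000198625, chromosome 1, 204516379 to 204558120, plus strand) measured 93.4, 83.2, 118, 77.3 and 66.5 CPM in IL-15 tumours 1 to 5, against 78.2, 67.3, 64.8, 70.5 and 80.1 CPM in control tumours 1 to 5. IL-15 tumours 1, 2 and 3 were the only ones above every control tumour, and IL-15 tumour 5 lay below 4 of the 5 control tumours. For MDM4 the log2 fold change was 0.28 ± 0.15 (edgeR adjusted p = 0.774), and it stayed between 0.16 and 0.37 in the 22 alternatives. PPM1D, the phosphatase that switches off ATM and p53 signalling, averaged 14.5 ± 2.02 CPM in IL-15 tumours and 16.8 ± 2.68 CPM in control tumours (log2 fold change -0.21 ± 0.17). CCNG1 averaged 147 ± 44.6 CPM in IL-15 tumours and 151 ± 31.0 CPM in control tumours (log2 fold change -0.037 ± 0.21).

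**Figure D3:**
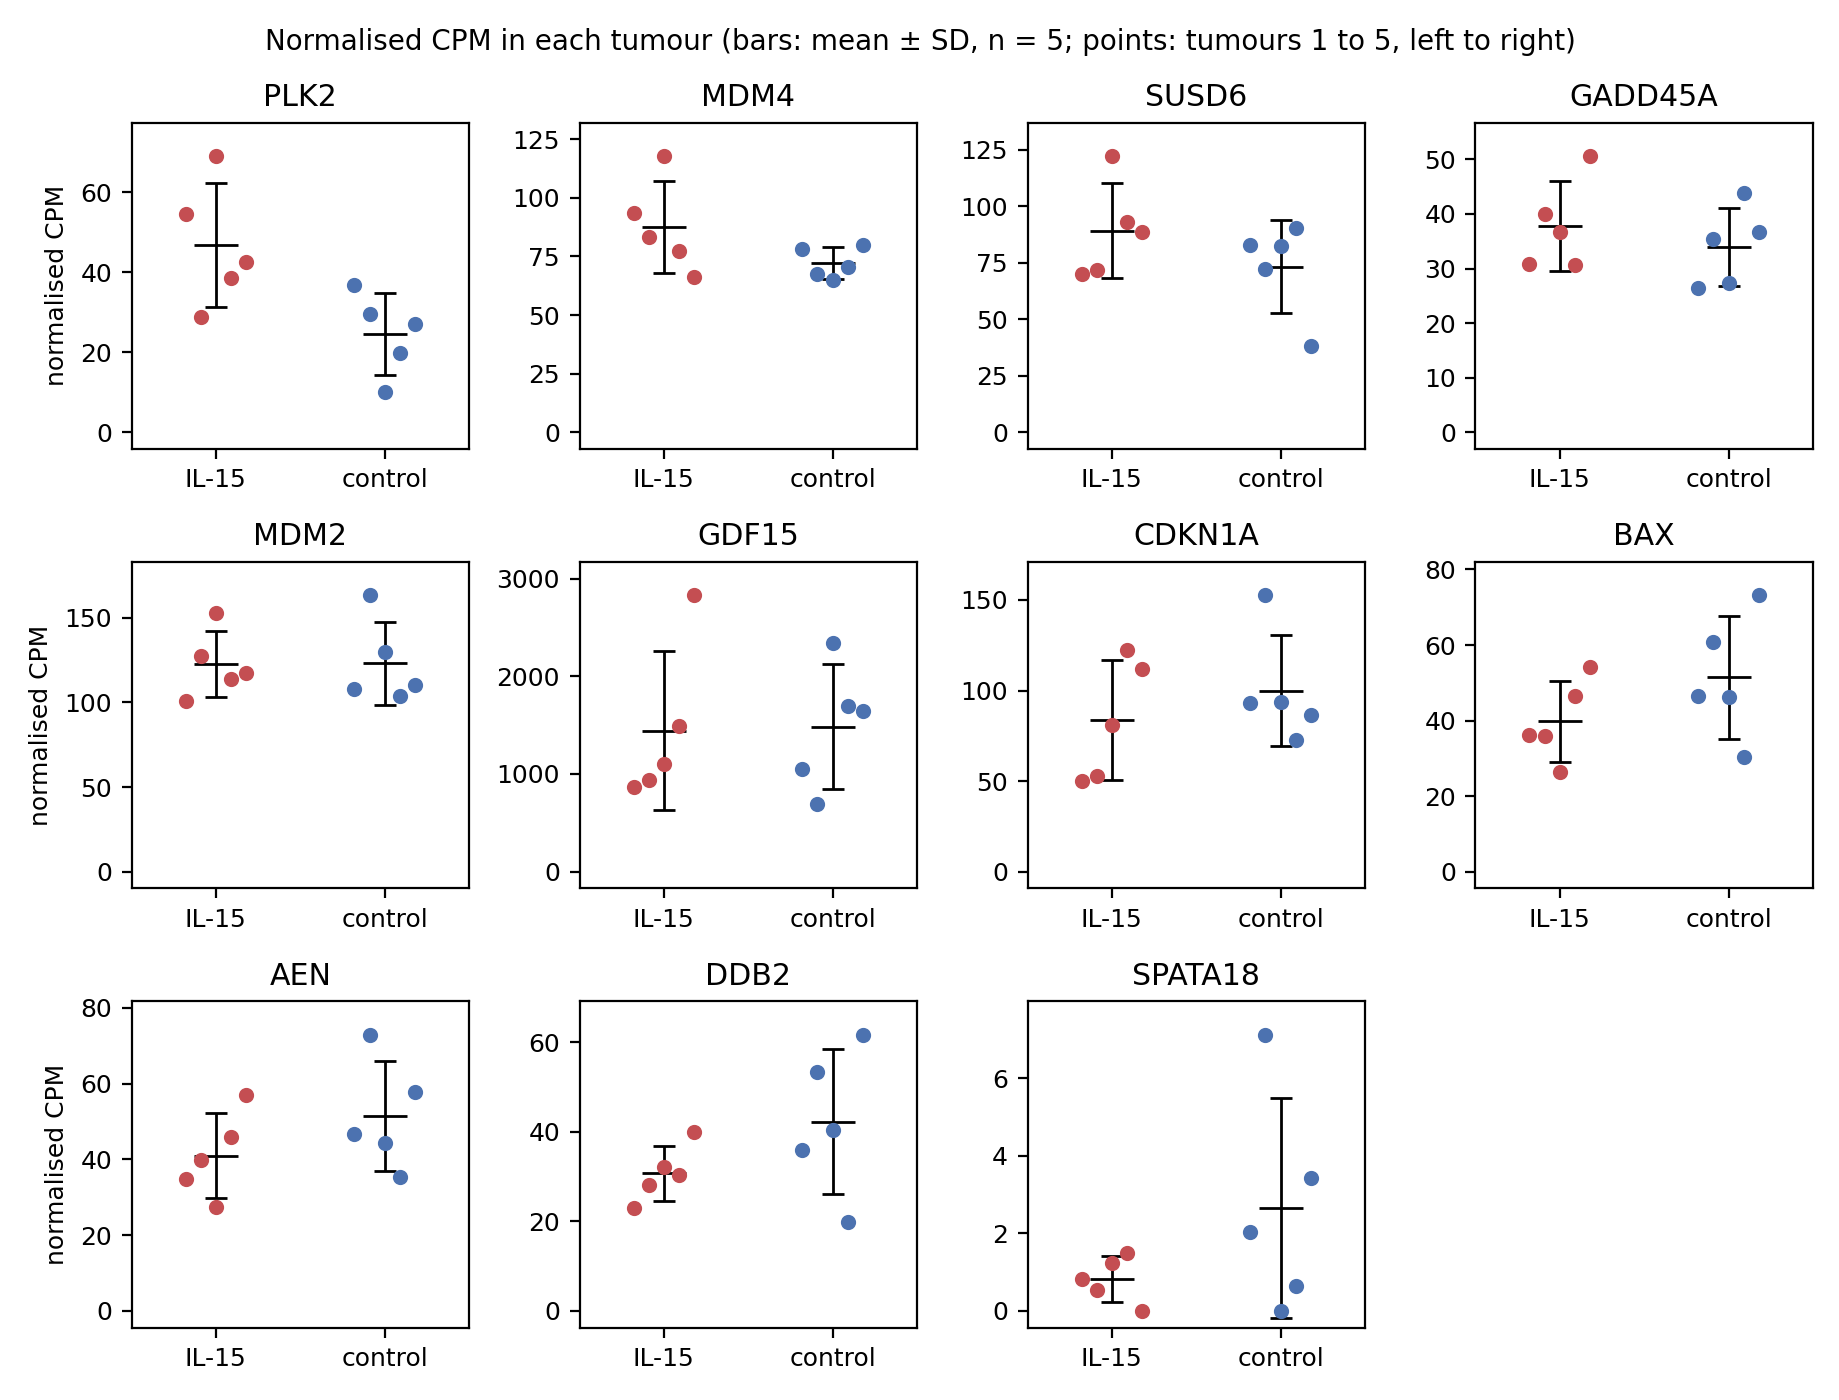
Normalised CPM of the 11 members described in every tumour, IL-15 left and control right, with mean and SD (n = 5 each) and tumours 1 to 5 from left to right. The groups overlap in every panel, PLK2 is highest in IL-15 tumour 3 (69.1 CPM) and CDKN1A in control tumour 2 (152.6 CPM).

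Of the 8 genes of cell death, 5 had fold changes below 0 and 3 above. BAX (ENSG00000087088, chromosome 19, 48954815 to 48961798, plus strand), which encodes the protein that perforates the outer mitochondrial membrane, measured 36.1, 36.0, 26.3, 46.4 and 54.3 CPM in IL-15 tumours 1 to 5, against 46.4, 60.8, 46.1, 30.5 and 73.2 CPM in control tumours 1 to 5. The lowest tumours were IL-15 tumour 3 and control tumour 4, and the highest was control tumour 5. For BAX the log2 fold change was -0.37 ± 0.24 (edgeR adjusted p = 0.799). AEN (ENSG00000181026, chromosome 15, 88621296 to 88632282, plus strand), an apoptosis-enhancing nuclease, measured 34.8, 40.0, 27.5, 45.9 and 56.9 CPM in IL-15 tumours 1 to 5, against 46.6, 73.0, 44.4, 35.3 and 57.8 CPM in control tumours 1 to 5. Control tumour 2 was highest and IL-15 tumour 3 lowest, and the log2 fold change was -0.33 ± 0.22 (edgeR adjusted p = 0.802). BBC3, which encodes the BH3-only protein PUMA, averaged 11.7 ± 3.36 CPM in IL-15 tumours and 14.7 ± 3.48 CPM in control tumours (log2 fold change -0.33 ± 0.22), and PHLDA3, a repressor of AKT, 48.5 ± 27.1 CPM in IL-15 tumours and 66.8 ± 22.3 CPM in control tumours (log2 fold change -0.46 ± 0.35). None of the 4 passed the test, and each kept a fold change below 0 in all 22 alternatives. With the T cell sum as a covariate the log2 fold changes were -0.25 for BAX, -0.15 for AEN, -0.16 for BBC3 and -0.23 for PHLDA3. The 4 genes also varied together between tumours (Pearson r from 0.76 to 0.93), so their shared direction is not 4 separate observations.

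SUSD6 (ENSG00000100647, chromosome 14, 69611596 to 69715142, plus strand), a membrane protein gene of the p53 response, measured 69.8, 71.9, 122, 93.2 and 88.7 CPM in IL-15 tumours 1 to 5, against 82.9, 72.2, 82.4, 90.6 and 38.3 CPM in control tumours 1 to 5. IL-15 tumour 3 was highest and control tumour 5 lowest, with the other 8 tumours between 69.8 and 93.2 CPM and a log2 fold change of 0.28 ± 0.22 (edgeR adjusted p = 0.832). PMAIP1, which encodes the BH3-only protein NOXA, averaged 7.86 ± 2.56 CPM in IL-15 tumours and 8.20 ± 1.15 CPM in control tumours. TP53I3, an oxidoreductase gene linked to oxidative stress, averaged 7.40 ± 1.50 CPM in IL-15 tumours and 6.88 ± 3.22 CPM in control tumours, with control tumour 4 at 1.86 CPM below all others. TP53INP1 averaged 203 ± 61.9 CPM in IL-15 tumours and 198 ± 64.6 CPM in control tumours. The log2 fold changes of PMAIP1, TP53I3 and TP53INP1 were -0.061, 0.11 and 0.033, and each changed sign in at least 1 alternative.

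Among the DNA repair genes DDB2 differed most. DDB2 (ENSG00000134574, chromosome 11, 47214465 to 47239240, plus strand), which recognises ultraviolet damage for nucleotide excision repair, measured 23.0, 28.1, 32.1, 30.4 and 40.0 CPM in IL-15 tumours 1 to 5, against 35.9, 53.4, 40.4, 19.9 and 61.8 CPM in control tumours 1 to 5. The IL-15 tumours lay within a range of 23.0 to 40.0 CPM inside the wider control range of 19.9 to 61.8 CPM. Its log2 fold change was -0.46 ± 0.26 (edgeR adjusted p = 0.776). XPC, the partner sensor of helix distortion, had the smallest spread of all members (SD 0.16 on the log2 scale within groups) and averaged 32.0 ± 3.22 CPM in IL-15 tumours and 34.6 ± 4.18 CPM in control tumours. RRM2B, the p53-induced subunit of ribonucleotide reductase, averaged 74.4 ± 14.2 CPM in IL-15 tumours and 78.3 ± 15.2 CPM in control tumours, and POLH, a polymerase that copies past ultraviolet lesions, 25.4 ± 1.81 CPM in IL-15 tumours and 24.5 ± 6.04 CPM in control tumours. Their log2 fold changes were -0.11, -0.073 and 0.047.

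GDF15 (ENSG00000130513, chromosome 19, 18374731 to 18389176, plus strand) measured 863, 943, 1099.5, 1487 and 2831 CPM in IL-15 tumours 1 to 5, against 1051, 689.6, 2341, 1694 and 1648 CPM in control tumours 1 to 5. IL-15 tumour 5 and control tumour 3 were the highest of their groups and control tumour 2 was the lowest of all, and the groups overlapped within a 4.10-fold range. On the log2 scale the difference was -0.040 ± 0.38 (edgeR adjusted p = 0.990). GDF15 is also induced by the integrated stress response and by low oxygen. The summed integrated stress response list (14 genes) lay at 1066 to 1883 CPM in IL-15 tumours and 1040.2 to 1448 CPM in control tumours. The summed hypoxia list (18 genes) lay at 2562 to 4921 CPM in IL-15 tumours and 1885 to 5357 CPM in control tumours. In both lists, as for GDF15, IL-15 tumour 5 and control tumour 3 were the highest of their groups. The lowest of all was control tumour 1 for both lists and control tumour 2 for GDF15. The part of either response in the GDF15 level was not tested.

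SPATA18 (ENSG00000163071, chromosome 4, 52051331 to 52097292, plus strand) was the most variable member. It measured 0.827, 0.532, 1.25, 1.51 and 0 CPM in IL-15 tumours 1 to 5, against 2.05, 7.13, 0, 0.640 and 3.43 CPM in control tumours 1 to 5. Control tumour 2 was far above the rest, and IL-15 tumour 5 and control tumour 3 had no count, which at a floor of 3 counts allows up to 0.221 and 0.205 CPM. The log2 fold change was -1.67 ± 1.00 (edgeR adjusted p = 0.783), on 63 counts over the IL-15 libraries and 192 over the control libraries. It was -0.89 without control tumour 2, and lay between -2.02 and -0.31 over the 22 alternatives, the last with log2(FPKM + 1). SESN1, a sestrin that restrains mTORC1, averaged 118 ± 48.7 CPM in IL-15 tumours and 107 ± 47.6 CPM in control tumours and spanned a 3.11-fold range. FDXR, the mitochondrial ferredoxin reductase, averaged 33.8 ± 9.85 CPM in IL-15 tumours and 33.2 ± 7.23 CPM in control tumours, and ZMAT3, an RNA-binding regulator of splicing, 28.5 ± 6.98 CPM in IL-15 tumours and 30.1 ± 9.14 CPM in control tumours. TRIAP1, a small mitochondrial survival factor, averaged 41.1 ± 7.82 CPM in IL-15 tumours and 43.8 ± 6.83 CPM in control tumours and TIGAR 1.29 ± 0.407 CPM in IL-15 tumours and 1.25 ± 0.313 CPM in control tumours. For these 5 genes the log2 fold changes lay between -0.091 (TRIAP1) and 0.14 (SESN1).

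The kinases upstream of p53 had nearly equal group means. ATM, which senses double-strand breaks, averaged 37.1 ± 11.6 CPM in IL-15 tumours and 35.9 ± 5.35 CPM in control tumours (log2 fold change 0.051 ± 0.20, edgeR adjusted p = 0.974). CHEK2, its effector kinase, averaged 18.1 ± 4.34 CPM in IL-15 tumours and 19.1 ± 5.03 CPM in control tumours (log2 fold change -0.073 ± 0.22, edgeR adjusted p = 0.963). CHEK2 has 4 pseudogenes with names of their own in the table, with 73 counts in all against 2827 for CHEK2, so its value carries some uncertainty. Several members share positions with other genes, and the labels do not say whether counting used strand. The partners with the most counts as a share of the member's were GTPBP2 for POLH (369% of its counts), LSM3 for XPC (217%), FAM228B for TP53I3 (65.0%), NPAT for ATM (57.3%), TCTEX1D4 for PLK3 (48.3%) and HSCB for CHEK2 (43.7%). The shared stretches, overlaps of whole gene spans with introns included, run from 78 bp for PLK3 to 10345 bp for POLH. Reads from them may be assigned to either gene or to neither.

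Single tumours stood out across several members. Within groups the SD of log2 CPM had a median of 0.40 over members and of 0.35 over all tested genes, and 19 of 30 members were above that second value. Only 8 members spanned less than 2-fold between their lowest and highest tumour. Control tumour 2 held the highest value for 8 of 30 members (26.7%, against 9.39% of all tested genes), namely MDM2, PPM1D, CDKN1A, AEN, XPC, RRM2B, SPATA18 and ZMAT3, and the lowest for GDF15. IL-15 tumour 1 held the lowest value for 7 members (23.3%, against 7.26% of all tested genes), among them MDM2, CDKN1A, CCNG1 and PHLDA3. The median deviation of the members from their means was 0.34 in control tumour 2 and -0.21 in IL-15 tumour 1, with the other 8 tumours between -0.12 and 0.15 on the log2 scale. Control tumour 5 held the highest value for 5 members (16.7%), close to its share among all tested genes (16.9%). Without control tumour 2 the median log2 fold change of the members was 0.020, with 16 of 30 above 0, and without IL-15 tumour 1 it was -0.00062, with 15 above 0.

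**Figure D4:**
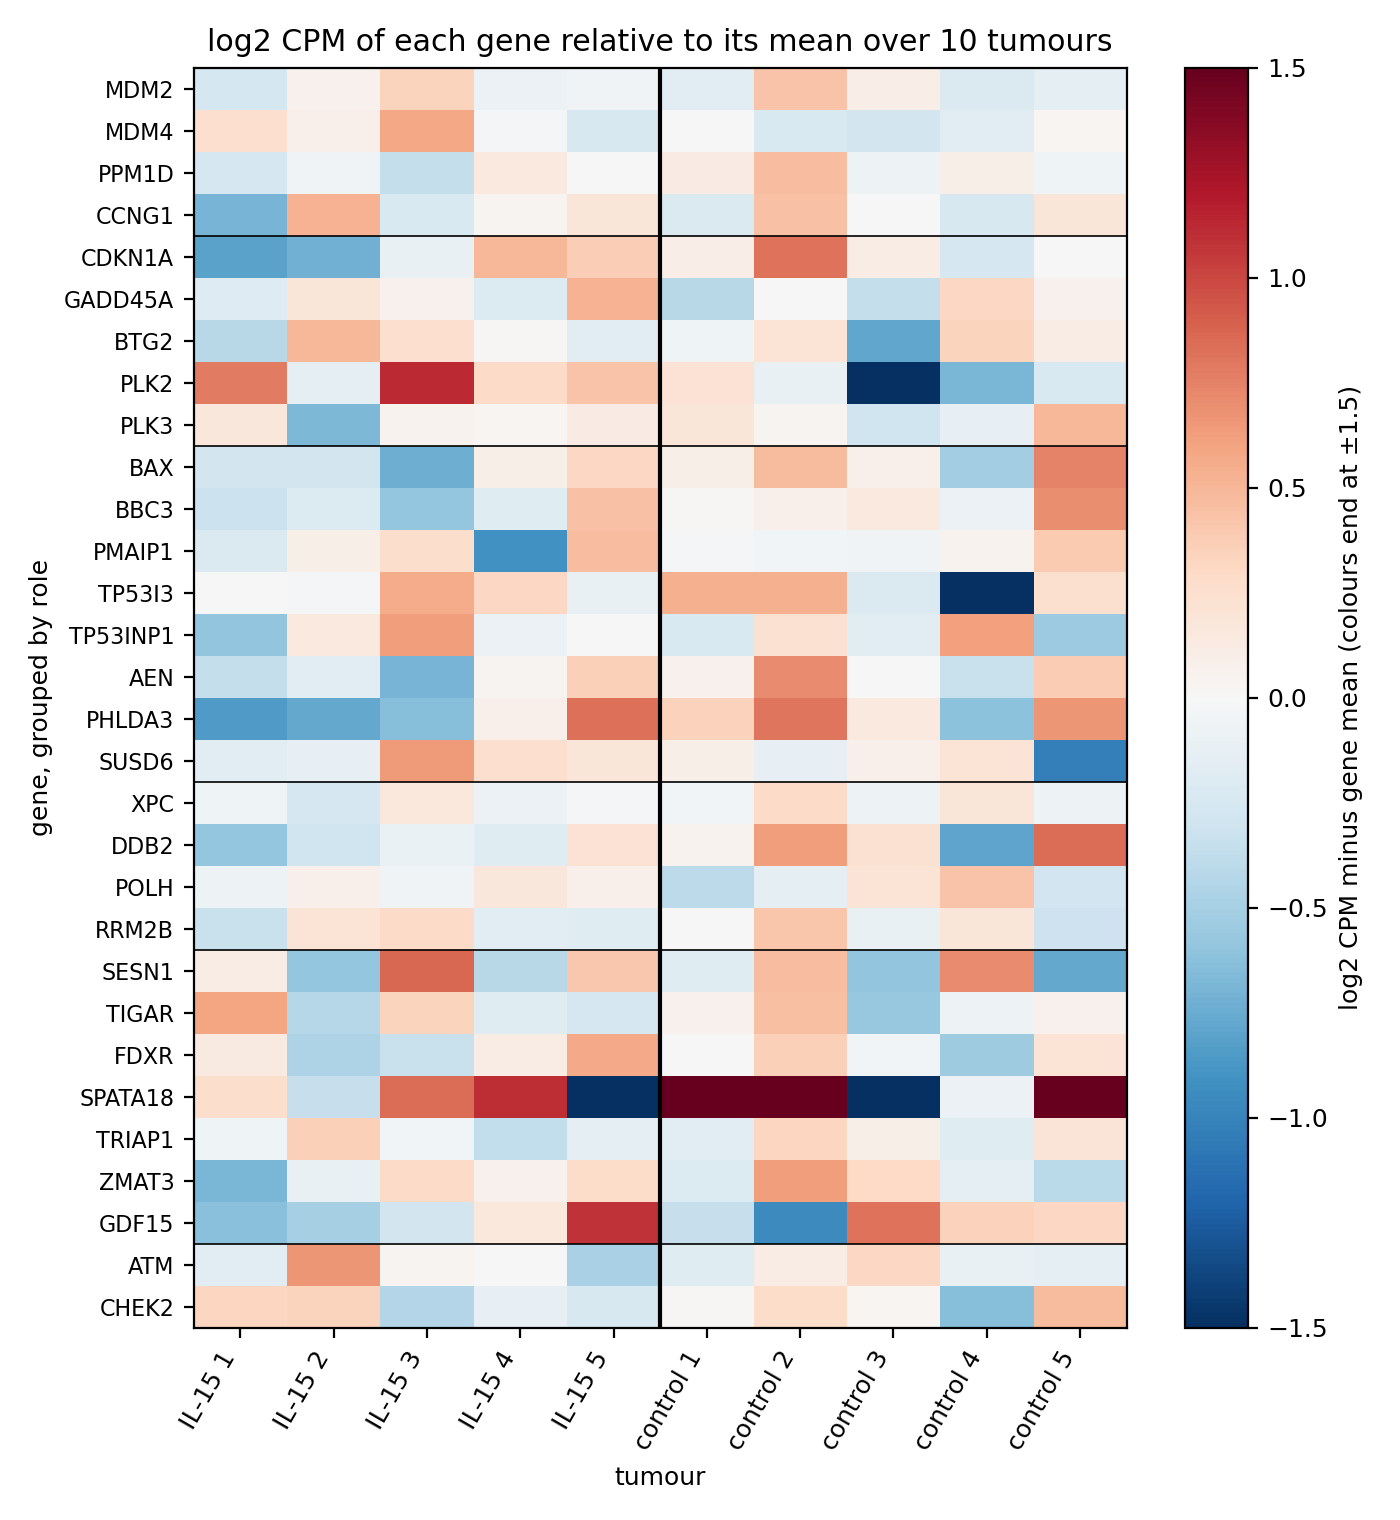
Log2 CPM of each member relative to its mean over the 10 tumours, IL-15 tumours left and control tumours right of the line, genes grouped by role. Control tumour 2 is above the mean (red) for most members and IL-15 tumour 1 below it (blue), and no block of genes separates the groups.

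The members did not vary as a single block. Of 435 pairs of members, 261 had a Pearson r above 0 over the 10 tumours, with a median r of 0.10. After Benjamini-Hochberg adjustment over the 435 pairs 2 passed 0.05. AEN followed BAX (r = 0.93, rho = 0.94, permutation p = 0.00022 and 0.0002, adjusted p = 0.0479 for r and 0.0740 for rho, n = 10). PHLDA3 followed AEN (r = 0.89, rho = 0.89, permutation p = 0.00022 and 0.00109, adjusted p = 0.0479 for r and 0.119 for rho, n = 10). The r of these pairs was 0.91 and 0.87 for deviations from the group means, and 0.94 and 0.95 without the 2 tumours farthest from the median of BAX and of AEN. Neither pair passed the adjustment with rank correlation, with group means removed or with library size alone (smallest adjusted p = 0.0740, 0.113 and 0.0696), so the calls lie at the edge of the threshold. For 6 members, r of at least 0.7 was counted over the 29 other members and over all other tested genes. Of these, BAX, AEN and PHLDA3 form the 2 pairs above, so their shares rest on the same correlations and lend no separate support. The shares were 17.2% of members and 8.25% of genes for BAX, 20.7% and 6.45% for AEN, and 20.7% and 3.93% for PHLDA3. They were 6.9% (2 of 29) and 0.705% for MDM2, and 6.9% (2 of 29) and 1.09% for CDKN1A. For TP53INP1 they were 3.45% (1 of 29) and 3.96%, so its share was no higher among the members than among all genes. The partners were ZMAT3 and RRM2B for MDM2, and PHLDA3 and ZMAT3 for CDKN1A, so these shares rest on few pairs. Without the 2 tumours farthest from the CDKN1A median, its r was 0.68 with PHLDA3 and 0.62 with ZMAT3.

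MDM2, whose transcription p53 drives directly, was compared with each of the other 29 members. ZMAT3 followed it most closely (r = 0.83, permutation p = 0.00264, adjusted p = 0.0766 over 29 pairs; rho = 0.90, permutation p = 0.00089, adjusted p = 0.0258; n = 10). Without the 2 tumours farthest from the MDM2 median r was 0.72, and for deviations from the group means 0.83. RRM2B came next (r = 0.72, permutation p = 0.0198, adjusted p = 0.287; rho = 0.65, permutation p = 0.0499, adjusted p = 0.482; n = 10), and its r was 0.27 without the 2 tumours farthest from the MDM2 median, so that relation rested on those tumours. Over the 8 tumours left, TIGAR had the closest relation with MDM2, a negative one (r = -0.90, exact permutation p = 0.00119, adjusted p = 0.0345 over 29 pairs; rho = -0.90, exact permutation p = 0.00456, adjusted p = 0.132; n = 8). Over all 10 tumours the TIGAR value was r = 0.12 and rho = -0.18 (permutation p = 0.743 and 0.633, adjusted p = 0.979 and 1.0), so it depended on leaving out IL-15 tumour 3 and control tumour 2. With only 12 to 27 counts of TIGAR per library, counting error also weighs on these values. CDKN1A and BAX, like 25 other members, had an r with MDM2 under 0.7.

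**Figure D5:**
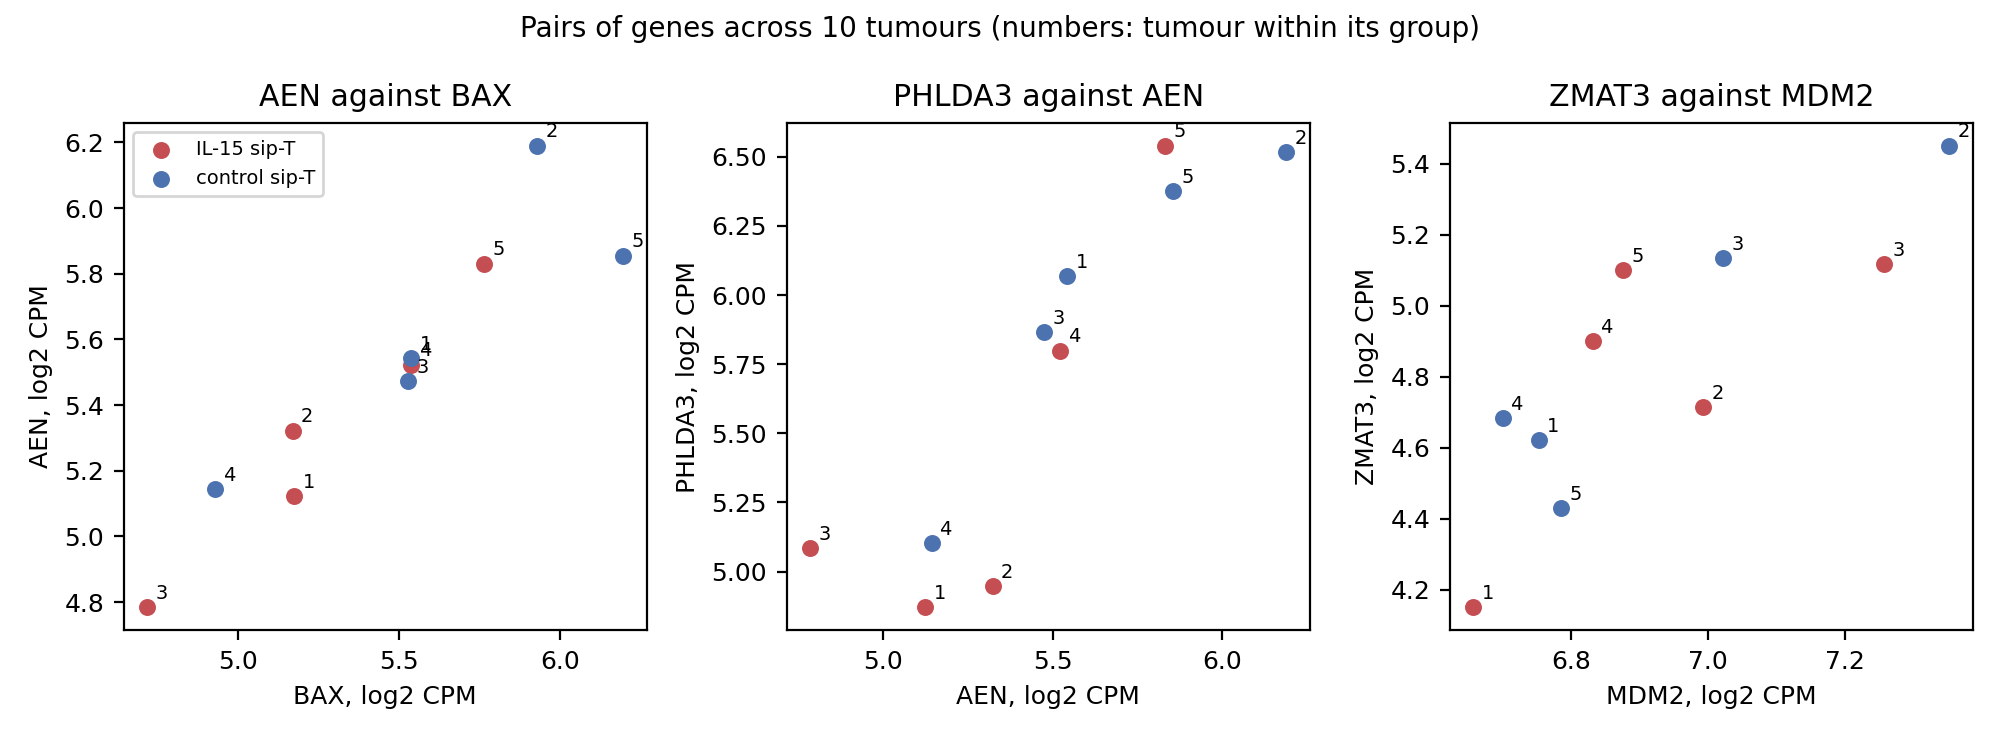
Log2 CPM of AEN against BAX, PHLDA3 against AEN and ZMAT3 against MDM2 in the 10 tumours (numbers name the tumour within its group). Points of both groups lie along the same lines, with r of 0.93, 0.89 and 0.83.

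Other genes of p53 signalling were also compared. Of a list of 36 further pathway genes, 34 were tested, 13 of them were higher and 21 lower on average in IL-15 tumours (median log2 fold change -0.069), and 0 passed edgeR. The smallest p belonged to TP53I11, a p53-inducible gene, with 19.1 to 43.9 CPM in IL-15 tumours and 36.1 to 104 CPM in control tumours and a log2 fold change of -0.99 ± 0.31 (edgeR adjusted p = 0.758). CHEK1, the kinase of the replication checkpoint, had 20.7 to 34.1 CPM in IL-15 tumours and 22.9 to 49.3 CPM in control tumours and a log2 fold change of -0.43 ± 0.20 (edgeR adjusted p = 0.767). NINJ1, which encodes a protein of plasma membrane rupture, had a log2 fold change of -0.34 ± 0.17. With TMM the summed level of the 36 genes was 1922 to 2073 CPM in IL-15 tumours and 2082 to 2352 CPM in control tumours, without overlap. By itself no tested gene of the list separated the groups, where 0.313% of all tested genes did so downward and 0.349% upward. How often sums of other genes separate was not tested. With library size alone the ranges were 1986 to 2107 CPM and 2022 to 2304 CPM in the same order, and with DESeq2 size factors they overlapped as well.

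Of 20 genes that sense DNA damage, 14 had fold changes below 0 and 0 passed edgeR. Fold changes above 0 made up 30% of the list, against 49.0% of all 16913 tested genes. The median log2 fold change of the list was -0.10 with TMM, where that of all tested genes was -0.0060. Its value with library size alone was not tested. H2AFX, the histone variant phosphorylated at breaks, had 113 to 265 CPM in IL-15 tumours and 149 to 663 CPM in control tumours (log2 fold change -0.85 ± 0.34, edgeR adjusted p = 0.758). PRKDC, the kinase of end joining, had a log2 fold change of -0.27 ± 0.17. Among 16 cell cycle genes that p53 lowers through the DREAM repressor complex, 14 had fold changes below 0 (median -0.16) and 0 passed edgeR. Fold changes above 0 made up 12.5% of this list, against 49.0% of all tested genes. The summed list overlapped between groups, at 925 to 1513 CPM in IL-15 tumours and 814 to 1699 CPM in control tumours. The lowest sum of all was in control tumour 4. How far these 16 genes vary together was not tested, so they may not be separate observations. Their median with library size alone was not tested either. Whether either list departs from all genes was not tested. The 3 with the smallest p were PLK1, the mitotic polo-like kinase, at -0.37, CDC20, an activator of the anaphase-promoting complex, at -0.34, and BIRC5, which encodes survivin, at -0.28.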

How the data were processed

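Raw read counts per human gene and FPKM values for 10 libraries were deposited by the authors, per the file headers. Build hg38, HISAT2 2.0.5, fastp, GATK 4.1.1.0, DESeq2 1.20.0 and featureCounts 1.5.0-p3 appear in the submitters' processing notes, with no role stated. Whether mouse reads were removed, which annotation was counted and whether strand was used are not given there. The labels name mouse as the organism, whereas the genes are human. A deposited table by the authors with the mean FPKM of each group served only as a check: its control means differed from those of the 5 control libraries in 38579 genes (relative tolerance 1e-06). The 5 libraries may therefore be part of a larger control group.

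Genes were filtered with filterByExpr (minimum count 10), scaled by TMM and tested with edgeR 4.0.16 (quasi-likelihood, robust, R 4.3.3). DESeq2 1.42.0 and limma 3.58.1 were alternatives, with log2(FPKM + 0.1 or 1). Correlations used log2 CPM (prior count 0.5) and 100000 permutations. The code was tested on simulated data. The members, lists and tests were chosen with earlier results of these data known. Values in every tumour are given for CDKN1A, MDM2, GDF15, BAX and the 4 members with the smallest p per direction, and up to 3 genes with the smallest p per further list, plus CHEK1. A result for 1 other gene is not reported here. H2AX was matched as H2AFX. All 45 pairs of libraries differed beyond counting noise (chi-square over its degrees of freedom from 17.9 to 78.5). Gene sequences were not used here.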

Additional observations from a re-analysis of the deposited data

Results flagged for a closer look

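In 4 of 60 groups of 5 tumours (30 genes in 2 groups), a single tumour stood apart from the other 4 by more than 0.71 of the whole range, a gap that chance gives in about 1 group in 20. CDKN1A reached 152.6 CPM in control tumour 2, where the next control tumour had 93.9 CPM. BBC3 and PMAIP1 reached 20.8 and 10.2 CPM in control tumour 5, with the next control tumours at 14.2 and 8.08 CPM. PLK3 stood at 6.59 CPM in IL-15 tumour 2, with the next IL-15 tumour at 10.8 CPM. Without control tumour 2, the log2 fold change of CDKN1A was -0.055. The causes were not tested.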

How the results depend on the processing

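No member passed the threshold in any of the 22 alternatives. Over all genes edgeR called 0, against 7 with DESeq2 and 1 without a filter beyond 1 count. The members' median log2 fold change stayed between -0.094 and 0.031. The number of members above 0 was 10 to 16 in all settings but library size alone (19). With the 2 tumours farthest from the MDM2 median left out, 1 Pearson correlation with MDM2 passed, the negative one of TIGAR, against 0 with all 10, where by rank 1 passed, that of ZMAT3. Over all 435 pairs, 2 passed, against 0 with rank correlation, 0 with deviations from the group means and 0 with library size alone, alternatives added after the data were seen. Replicate numbers correlated from -0.22 to 0.25 between groups, so they were taken as names only. With the replicate block edgeR called 0 genes, 13 of 30 members were above 0 with a median of -0.066, and no call changed.

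Of the members, 14 kept their sign in all 22 alternatives. The other 16 had log2 fold changes within 0.14 of 0 and changed sign somewhere. With library size alone the log2 fold change was 0.035 for CCNG1, 0.011 for CHEK2, 0.047 for GDF15, 0.080 for MDM2, 0.028 for PMAIP1, 0.0059 for RRM2B and 0.0050 for ZMAT3. With the T cell sum as a covariate the log2 fold change was 0.20 for CCNG1, 0.0074 for GDF15, 0.13 for PMAIP1, 0.024 for RRM2B, -0.18 for TIGAR and -0.0083 for TP53I3. With upper quartile scaling the log2 fold change was 0.00076 for CCNG1, 0.013 for GDF15 and 0.040 for MDM2. For MDM2 it was 0.010 with a mean of at least 1 CPM, 0.022 with protein-coding genes only, 0.00067 with limma voom and 0.00030 with the replicate block. On log2 FPKM it was -0.0028 for ATM with a pseudocount of 0.1, -0.0078 for FDXR with a pseudocount of 0.1 and -0.0054 for FDXR with a pseudocount of 1. Leaving out 1 library at a time gave -0.090 to 0.11 for MDM2, -0.18 to 0.098 for CCNG1, -0.083 to 0.16 for BTG2, -0.20 to 0.019 for PLK3, -0.20 to 0.098 for PMAIP1, -0.14 to 0.25 for TP53I3, -0.14 to 0.22 for TP53INP1 and -0.038 to 0.18 for POLH. The same ranges were -0.15 to 0.029 for RRM2B, -0.098 to 0.36 for SESN1, -0.13 to 0.17 for TIGAR, -0.14 to 0.14 for FDXR, -0.17 to 0.092 for ZMAT3, -0.44 to 0.18 for GDF15, -0.14 to 0.16 for ATM and -0.21 to 0.054 for CHEK2. The causes were not tested. Simulated data served to check the code only, and no smallest detectable difference at this depth was derived from them.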

Other observations

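Stress genes with inputs other than p53 also showed no call. Of 12 tested immediate early genes, 6 had fold changes above 0 and 6 below, and 0 passed edgeR. FOS, a transcription factor induced by growth signals and by tissue handling, had 5.93 to 39.2 CPM in IL-15 tumours and 5.65 to 16.5 CPM in control tumours (log2 fold change 0.83 ± 0.46, edgeR adjusted p = 0.776). DUSP2 and JUNB had log2 fold changes of -0.31 and -0.29. Of 14 integrated stress response genes, 6 (42.9%) were above 0 and 8 below. VLDLR, which encodes a lipoprotein receptor, was the only one of the list with an unadjusted edgeR p under 0.05 and was higher, with 49.8 to 83.9 CPM in IL-15 tumours and 29.5 to 51.8 CPM in control tumours (log2 fold change 0.85 ± 0.19, edgeR adjusted p = 0.758, DESeq2 adjusted p = 0.0546). SLC7A11, the cystine transporter gene that p53 is known to repress, had 21.7 to 60.9 CPM in IL-15 tumours and 46.0 to 67.9 CPM in control tumours (log2 fold change -0.46 ± 0.23, edgeR adjusted p = 0.774). DDIT3, which encodes CHOP, had a log2 fold change of 0.35 ± 0.33.

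Some pairs of members ran in opposite directions between tumours, and none of the negative relations passed the adjustment over 435 pairs. SUSD6 against CHEK2 had r = -0.78 and rho = -0.93 (permutation p = 0.00353 and 0.00034, adjusted p = 0.154 for r and 0.0740 for rho, n = 10), and r = -0.87 without the 2 tumours farthest from the median of SUSD6. Across the 30 members, fold change and gene length had a Spearman rho of 0.11, against 0.04 over 12934 protein-coding genes, a description across genes, which are not independent replicates.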
